A study of Mus musculus with 4 samples.

Results

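The class I olfactory receptor cluster of mouse chromosome 7 was examined for binding of CTCF, the zinc-finger protein found at insulators and, with cohesin, at the anchors of chromatin loops. Its members were the protein-coding genes whose symbol begins with Olfr between positions 102000000 and 106000000 (GENCODE M21 on mm10). This gave 129 of the 21755 protein-coding genes on chromosomes 1 to 19 and X. The binding data were CTCF chromatin immunoprecipitation and sequencing (ChIP-seq) from hippocampal tissue of male B6CASTF1/J mice aged 2 months, which are F1 hybrids of the strains C57BL/6J and CAST/EiJ. The 4 libraries form biological replicate 1 and biological replicate 2, each of 2 technical libraries from a pool of 7 tissue samples. No treatment or mutant was part of the study, so the receptor genes are set against other genes and other regions of the same samples. Peak lists hold no expression values, so the tissue label was not checked against marker genes, and read depth is unknown.

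Olfactory receptors are G-protein-coupled receptors that sense odorants in the nose, and each olfactory sensory neuron expresses a single receptor allele. Class I receptors form the older, fish-like branch of the family. In the mouse they are known to lie together in a single cluster on chromosome 7, which surrounds the beta-globin genes and a group of Trim genes. Trim proteins include antiviral ubiquitin ligases. Hippocampal cells are not olfactory sensory neurons. The cluster ran from Olfr543 to Olfr692, chr7:102476579-105369355, and is called the receptor span below. Of the 129 symbols, 120 carry numbers between those of the end genes, these included, and 9 do not. Members were chosen by symbol and position, and their class was not checked against protein sequence. The genes were split almost evenly by strand, 65 on the plus and 64 on the minus strand, and 5 symbols end in a pseudogene suffix although the annotation calls them protein-coding.

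A receptor was called occupied when the summit of a CTCF peak, in the list thresholded for agreement between the replicates, lay within 1 kb of any of its annotated transcription start sites (TSSs). The sequences around the summits of the 6 occupied receptors are shown because they hold the base patterns under these peaks. Each is 101 bases of GRCm38, the assembly that mm10 names, on the plus strand and centred on the summit. It is reference sequence, which is that of C57BL/6J, and the CAST/EiJ allele may differ. Capitals mark the best match to the 12-base CTCF core motif on either strand, and the leftmost one where several tie.
Olfr543, chr7:102477324-102477424: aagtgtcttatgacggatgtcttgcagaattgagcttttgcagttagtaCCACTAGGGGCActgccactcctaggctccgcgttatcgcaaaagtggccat
Olfr556, chr7:102665482-102665582: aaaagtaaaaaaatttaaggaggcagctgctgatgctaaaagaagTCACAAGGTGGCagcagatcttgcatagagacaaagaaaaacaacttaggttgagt
Olfr557, chr7:102695533-102695633: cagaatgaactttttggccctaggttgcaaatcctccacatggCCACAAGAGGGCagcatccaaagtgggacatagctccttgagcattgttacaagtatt
Olfr243, chr7:103716560-103716660: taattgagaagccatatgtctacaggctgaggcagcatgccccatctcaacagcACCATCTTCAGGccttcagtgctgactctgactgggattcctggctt
Olfr658, chr7:104647285-104647385: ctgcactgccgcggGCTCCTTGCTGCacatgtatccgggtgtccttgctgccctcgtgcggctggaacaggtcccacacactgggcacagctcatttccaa
Olfr691, chr7:105338469-105338569: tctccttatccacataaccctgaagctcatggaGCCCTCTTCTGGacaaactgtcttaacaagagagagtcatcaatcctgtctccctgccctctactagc

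The match closest to the motif had 1 mismatch at Olfr557, on the plus strand, and at Olfr691, on the minus strand. Olfr543 and Olfr556 had 2 mismatches, both on the plus strand. Olfr243 and Olfr658 had 3 mismatches on the minus strand, which is no match under the limit of 1 mismatch used below. Another match with 3 mismatches lies in the Olfr658 window and is not marked. The window at Olfr658 stood out in base composition, with 62.4% G and C and 5 CpG dinucleotides. The other 5 windows ranged from 37.6% G and C at Olfr556 to 51.5% at Olfr243, and of these only the window at Olfr543 held any CpG, with 4.

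Few receptors of the cluster had CTCF at a start site. The occupied ones were 6 of 129, or 4.65% (95% exact binomial interval 1.73 to 9.85%), against 38% of all protein-coding genes. Among Olfr genes elsewhere, 15 of 1006 were occupied, or 1.49% (0.837 to 2.45%). The interval covers counting error only and treats neighbouring genes as independent, which they may not be. Both receptor groups were far below the level of all protein-coding genes. The difference between the class I cluster and the other Olfr genes was not tested.

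The authors' caller gives each peak a signal, a score without a stated scale that serves to rank peaks within a list. Olfr557 had 761, with 359.5 in replicate 1 and 401 in replicate 2, from a summit 327 bp upstream of its start site. Olfr556 had 683, with 336 in replicate 1 and 349 in replicate 2, from a summit 633 bp downstream of its start site and inside an intron. These neighbours were the strongest of the 6 in both replicates, and their summits ranked in the top 6.63% and the top 12.6% of the 90278 genome-wide peaks.

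Olfr658 had a signal of 233, with 115 in replicate 1 and 118 in replicate 2, from a summit 30 bp upstream of its only start site. Olfr243 had 175, with 92.3 in replicate 1 and 81.6 in replicate 2, and its summit lay in the coding sequence, 14 bp past the start codon. Olfr543, the first gene of the cluster, had 145, with 64.9 in replicate 1 and 77.1 in replicate 2, also from a summit in coding sequence, 494 bp past the start codon. Olfr receptor genes are known to carry their whole coding sequence in a single exon, so these 2 peaks sit on the receptor's own reading frame. Olfr691 had the lowest signal, 92.9, with 40.0 in replicate 1 and 48.6 in replicate 2, from a summit 805 bp upstream of its nearest start site and within an intron of its longer transcript.

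Replicate 2 over replicate 1 at these 6 sites, as log2 less the genome-wide median, ran from -0.27 at Olfr243 to 0.19 at Olfr691. All 6 receptors were also occupied in the list of either replicate alone and at an irreproducible discovery rate (IDR) of 0.01. In the list called on pooled reads, 5 were occupied and Olfr691 was not. Which start sites count mattered more: with only the 5-prime-most start of each gene, 3 receptors were occupied, namely Olfr556, Olfr557 and Olfr658. The share of all protein-coding genes under that rule is not given here. The 38% for any start site is therefore no reference for this count. Of the 129 receptors, 105 have several annotated start sites, and 81 have a start within 5 bp of the start codon.

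The 1 kb limit also decided single genes. Just outside it were Olfr676, with a summit of signal 54.6 at 1150 bp, Olfr67, with 129.7 at 1256 bp, and Olfr649, with 285 at 1283 bp. Olfr691, at 805 bp, was the last one inside. Within 5 kb there were 20 receptors (15.5%), against 7.36% of other Olfr genes and 59.6% of all protein-coding genes. Weaker candidate peaks that failed the replicate threshold lay within 1 kb of 7 further receptors, with signals between 19.7 and 48.4, below the weakest of the 6 occupied ones. A summit inside an untranslated exon was seen at 4 receptors, of which Olfr78, a receptor also known outside the nose, was picked out after its values were seen. That summit had a signal of 189.5 and lay 6132 bp from the nearest start site. It also lies within Olfr560, another receptor on the same strand.

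**Figure D1:**
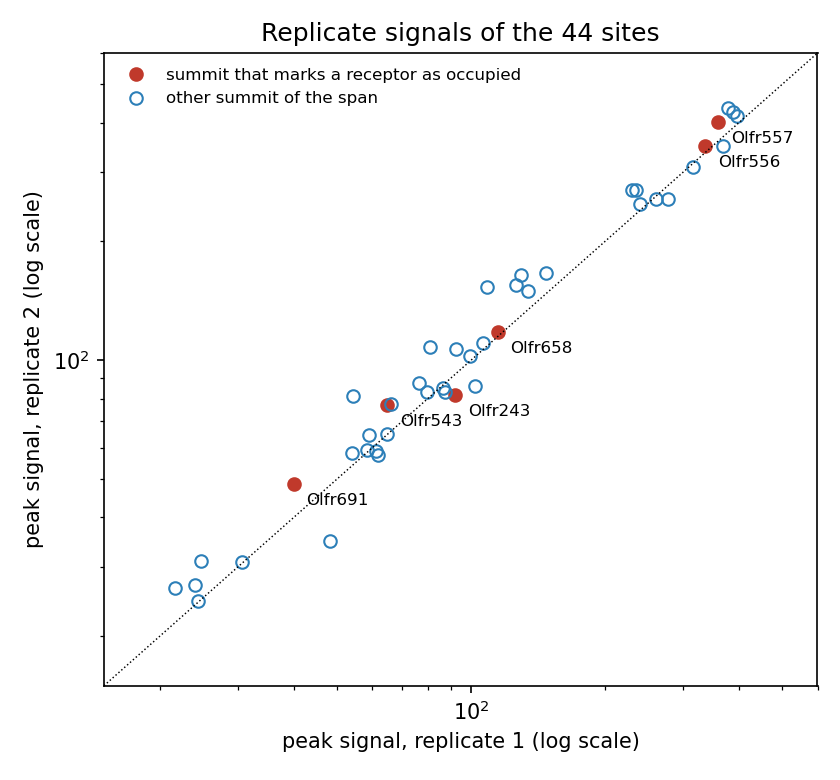
Peak signal in replicate 1 (x axis) and replicate 2 (y axis), both the caller's score on log scales, for the 44 CTCF summits of the receptor span, with the line of equal signal dotted. Filled points are the summits of the 6 occupied receptors, from 40.0 and 48.6 at Olfr691 to 359.5 and 401 at Olfr557, and open points the rest.

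Distance showed the same scarcity. The median receptor of the cluster had its nearest summit 24487 bp from a start site, with quartiles of 7571 and 65193 bp. The median was 74535 bp for other Olfr genes and 2675 bp for all protein-coding genes. Over 100 kb from any summit were 16.3% of the cluster's receptors, 41.7% of other Olfr genes and 6.34% of all protein-coding genes. By these medians the cluster's receptors lay nearer to CTCF than other Olfr genes and farther from it than genes in general, and neither difference was tested. The 3 farthest were Olfr605 at 266749 bp, Olfr603 at 264390 bp and Olfr606 at 260849 bp, all in the longest stretch of the cluster without a summit.

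**Figure D2:**
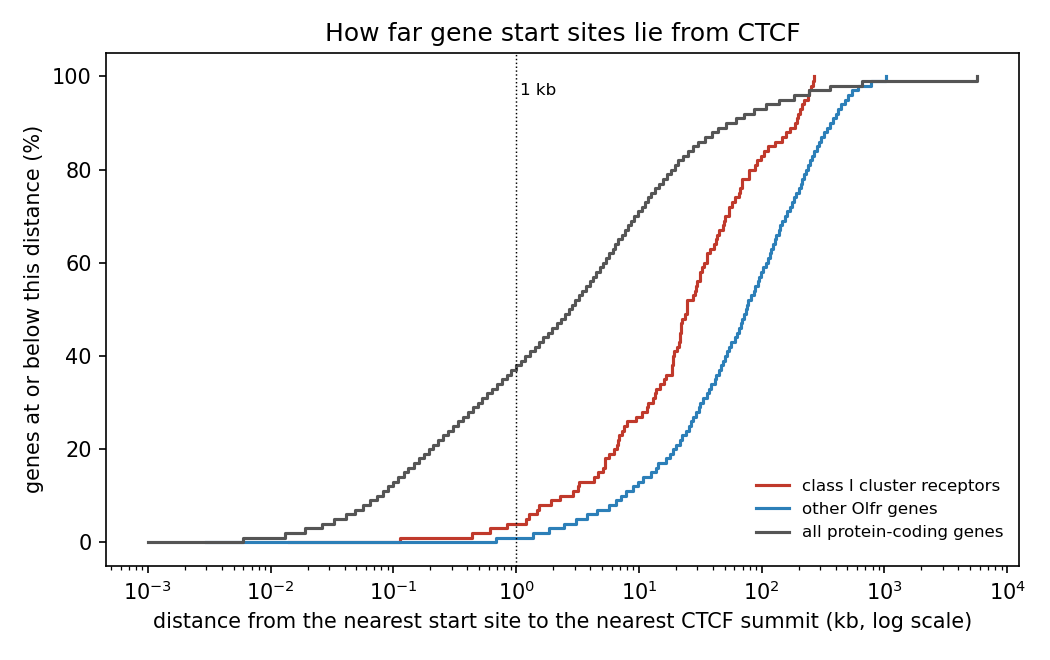
Share of genes (y axis, %) whose nearest annotated start site lies within a given distance of a CTCF summit (x axis, kb, log scale), for the 129 receptors of the class I cluster, 1006 other Olfr genes and 21755 protein-coding genes. The medians are 24487, 74535 and 2675 bp, and the dotted line marks the 1 kb limit.

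The receptor span held 44 summits, 1.52 per 100 kb. Its flanks within the examined interval held 61 in 1107224 bp, 5.51 per 100 kb, and the genome 3.43 per 100 kb. The density of the span was 0.444 of the genome's, and the flanks were 3.62 times as dense as the span. The peaks that were present had similar signals: the median was 189 in the span, 208 in the flanks and 165 genome-wide. Signals of 500 or more made up 22.7% of the span's summits, 24.6% of those in the flanks and 23.2% of those in the genome.

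Values of sequence and mappability lay beside this difference. G and C made up 39.4% of the span, 43.4% of the flanks and 43.1% of chromosome 7. Words of 32 bases that occur once in the genome made up 72.3% of the span, against 92.9% of the flank before it and 71.2% of the flank after it. The flank after the span held 5.07 summits per 100 kb and the flank before it 6.09. For each receptor, only the start site nearest to a summit was used in the next value. Within 1 kb of these sites, 89.0% of such words were unique, 85.3% at the 6 occupied receptors and 89.2% at the other 123. Candidate peaks before thresholding were also sparse, 2.66 per 100 kb in the span, 12.9 in the flanks and 7.74 in the genome, and of these 57.1%, 42.7% and 44.3% passed. The part of base composition and of mappability in the difference was not tested.

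**Figure D3:**
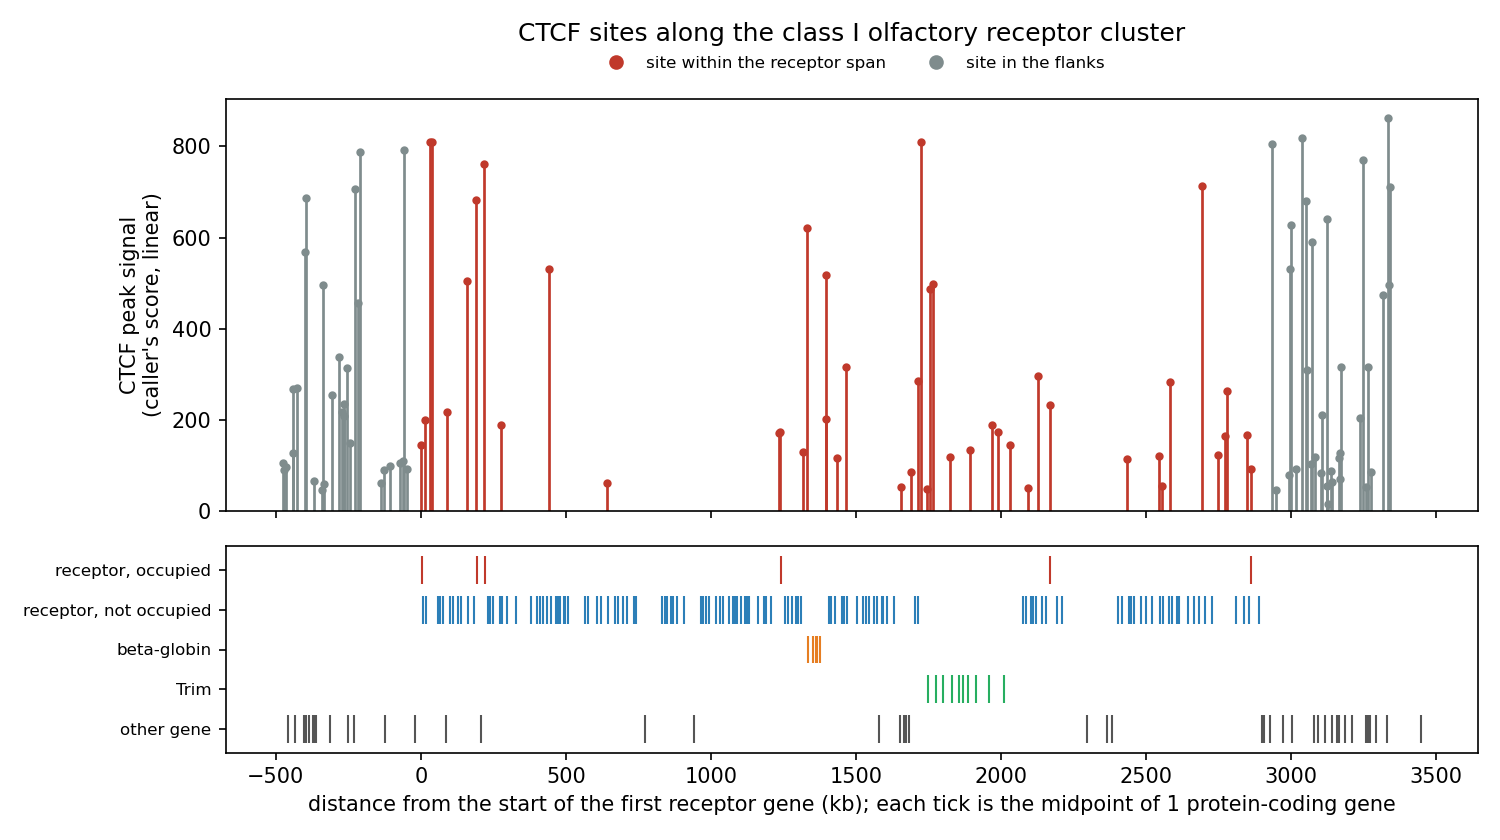
CTCF summits across the examined interval, with peak signal (y axis, the caller's linear score) against distance from the start of the first receptor gene (x axis, kb), above rows of ticks at the midpoints of protein-coding genes (Trim21 and Trim68 are in the row of other genes). Summits of the receptor span number 44 and those of the flanks 61, and the empty stretch of 592578 bp lies over 32 receptors.

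Within the cluster the sites were uneven. The 77 receptors before the globin genes shared 13 summits, 0.988 per 100 kb. The 18 receptors between the globin and Trim genes had 5, or 1.58 per 100 kb, and the 34 receptors after the Trim genes had 13, or 1.59 per 100 kb. The Trim genes were denser, with 7 summits or 2.42 per 100 kb. Each block runs from its first gene to its last, so summits between blocks are counted in none. Among these are the strongest site of the span, the sites beside the globin genes and the summit 100 bp from the start site of Trim30d. No summit lay in the 40693 bp of the globin genes, a stretch too short for this to show scarcity. Occupied receptors numbered 4 of 77 in the first block, 0 of 18 in the second and 2 of 34 in the third. With 18 genes, a count of 0 allows a share up to 18.5% (95% exact binomial interval). Median distances to a summit were 35791 bp in the first block, 21731.5 bp in the second and 14654.5 bp in the third.

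The first block was itself divided. Its first 643032 bp, with 37 receptors, held 11 summits, 1.71 per 100 kb, among them 6 with a signal of 500 or more. Then followed the longest stretch without a summit, 592578 bp between a weak summit of signal 61.5 and one of 173. It contains 32 receptors from Olfr588-ps1 to Olfr625-ps1. In it lay 3 candidate peaks with signals of 24.3, 24.7 and 36.8, and none passed. The stretch held no exact match to the motif and 35 with at most 1 mismatch, 59.1 per Mb, against 66.4 per Mb in the whole span and 95.9 on chromosome 7. Its G and C content was 37.8% and 67.7% of its 32-base words were unique. The next longest distances between adjacent summits were 264786, 199781 and 188101 bp.

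The summits cut the span into stretches, and 27 of these held receptors. The median such stretch had 3 receptors, and the 3 largest, of 32, 12 and 11, held 55 of the 129. Of 28 windows of 100 kb in the span, 10 had no summit and 4 had a single one, and the fullest had 5.

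**Figure D4:**
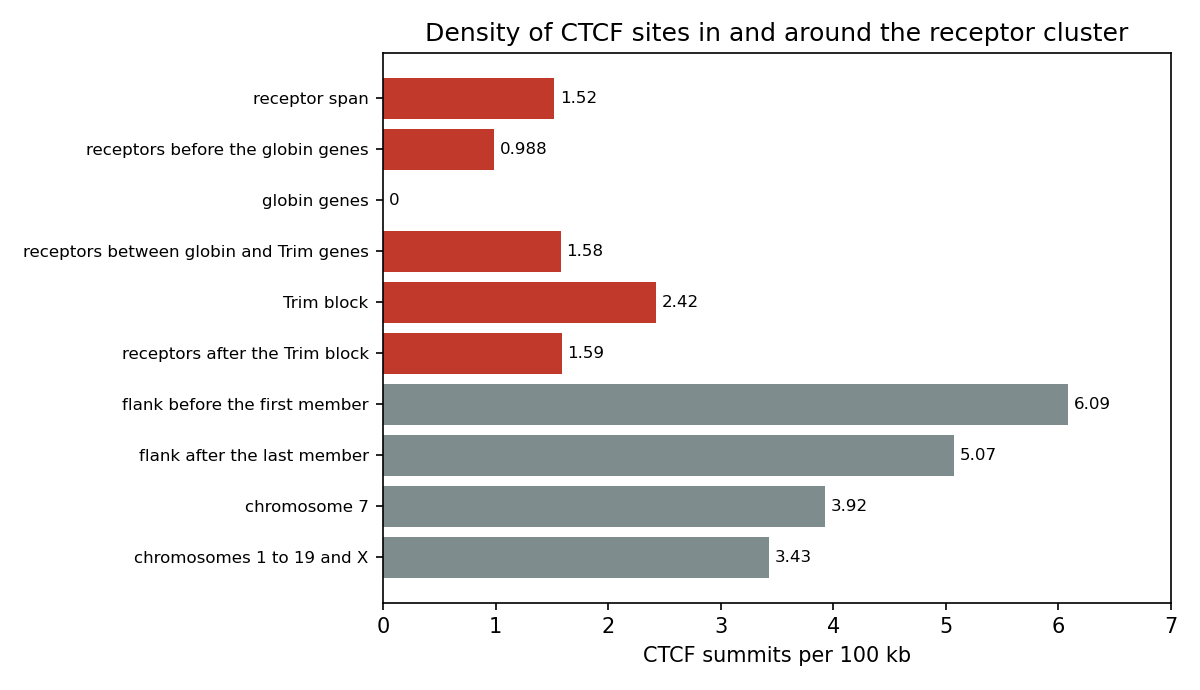
CTCF summits per 100 kb (x axis) in the receptor span and its blocks (upper bars) and in both flanks, chromosome 7 and chromosomes 1 to 19 and X (lower bars). The receptor span stands at 1.52 and its blocks between 0 and 2.42, against 3.43 for the genome.

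Sequences of 4 further sites are shown, the strong site outside each end of the cluster and the pair of strongest sites within it. They are plus-strand reference sequence of GRCm38 centred on the summit, with capitals as above.
Site before the first receptor, chr7:102417590-102417690: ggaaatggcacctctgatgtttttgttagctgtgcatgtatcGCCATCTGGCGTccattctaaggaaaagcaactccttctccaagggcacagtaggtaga
Second strongest site of the span, chr7:102506972-102507072: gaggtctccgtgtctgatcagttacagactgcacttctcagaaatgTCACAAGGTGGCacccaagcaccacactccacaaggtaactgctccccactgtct
Strongest site of the span, chr7:104199972-104200072: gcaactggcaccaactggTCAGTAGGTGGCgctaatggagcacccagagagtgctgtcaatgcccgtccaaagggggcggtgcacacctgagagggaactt
Site after the last receptor, chr7:105412016-105412116: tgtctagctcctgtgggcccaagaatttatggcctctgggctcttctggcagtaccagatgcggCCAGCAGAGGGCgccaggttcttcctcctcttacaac

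At the first end, the nearest 2 summits outside had signals of 92.5 and 793. The weaker lay 46818 bp and the stronger 58939 bp before Olfr543, the stronger within an intron of Stim1, which encodes a calcium sensor of the endoplasmic reticulum. The strong site had 391 in replicate 1 and 406 in replicate 2, and its best match had 2 mismatches, which is no match under the limit of 1. The nearest outer gene, Rrm1, which encodes the large subunit of ribonucleotide reductase, starts and ends before Olfr543 with 6808 bp between them, and its start site was 11934 bp from a summit. Inside this end the first 2 summits were those at Olfr543 (145) and in an untranslated exon of Olfr545 (199). They were followed by a close pair with 809.2 and 809.1, 30443 and 36690 bp inside. The first of the pair carries the 12 bases seen at Olfr556, and in 100 bases around them 38 positions were identical.

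At the last end, the nearest outer gene is Fam160a2, on the minus strand. Its 3-prime end lies 1856 bp after Olfr692, and its start site, at its far end, was 12012 bp from a summit. The last 2 summits inside the cluster had signals of 167 and 92.9, 43853 and 30836 bp before the end, the second being that of Olfr691. The first outside had 806, with 393 in replicate 1 and 414 in replicate 2, 42711 bp past Olfr692. It holds an exact motif on the plus strand, and the start site of Cnga4, a subunit of the olfactory cyclic nucleotide-gated channel, was 7444 bp away. The next, of signal 47.4, marked the promoter of Cckbr, a receptor for cholecystokinin. Signals of 500 or more were found at 15 of the 61 flank summits, so a strong site near an end was not unusual there.

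The strongest site of the span, 809.6 with 397 in replicate 1 and 416 in replicate 2, lay 4037 bp from a start site of Olfr649, between the second receptor block and the Trim genes. It was among the top 3.04% of all peaks, and its match with 1 mismatch is on the plus strand. No summit of the thresholded list of pooled reads lay within 100 bp of this site. Whether a shifted summit lay elsewhere under the peak was not checked. The fifth strongest, of 714, lay 7274 bp from Olfr684 in the last block, and the third in order, with 809.1, and this one had 3 mismatches each. The globin genes, expressed in red blood cells, were unoccupied in 5 of 5 cases but had a strong summit on either side, with 621 at 6910 bp from the start of Hbb-bt and 518 at 20051 bp from that of Hbb-y. No match within 3 mismatches was found at the second of these.

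By position, 12 of the 44 summits of the span lay within 1 kb of a start site of any annotated gene, 21 were intergenic, 6 were in introns and 5 in other exons. Within a receptor gene lay 11, of which 2 were in coding sequence, 4 in untranslated exons and 5 in introns. Relative to receptor start sites, 6 were within 1 kb, 14 between 1 and 5 kb and 24 farther away.

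A motif match with at most 1 mismatch within 50 bp was found at 26 of the 44 summits, 59.1% (95% exact interval 43.2 to 73.7%), against 27 of 61 in the flanks, 44.3% (31.5 to 57.6%). The intervals overlap. Matches faced plus at 11 and minus at 15 summits of the span. The unbound motif was common: of 192 such matches in the span, 14.6% lay within 50 bp of a summit, against 22.3% in the flanks and 21.2% on chromosome 7. For exact matches, 4 of 12 in the span were at a summit, against 4 of 5 in the flanks and 72.2% on the chromosome. Among the 300-base RefSeq promoter windows (GRCm38.p6) of the 107 receptors matched by symbol, 2 (1.87%) held a match with at most 1 mismatch, against 5 of 824 (0.607%) for other Olfr genes. Neither of the 2 was an occupied receptor, but only 5 occupied receptors had a window and Olfr658 had none. No comparison with all protein-coding genes is made here, since windows matched only 75.5% of them by symbol, too few for such a check. The median window had 1 CpG in both sets, and 37.3% G and C in the cluster against 34.7% elsewhere.

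Replicates were close at the cluster's summits, which had been kept for agreement between these same replicates. The closeness is partly set by that choice, as it is for all 90278. The log2 ratio of replicate 2 over replicate 1, less the genome-wide median, had a median of -0.0034 and an SD of 0.194 over the 44 summits, against an SD of 0.408 over all 90278. It was above 0 at 22 summits and below 0 at 22, and exceeded 0.5 in size at a single one. A summit within 100 bp counted as the same site in the lists called apart. Of the 44, 40 were then found in replicate 1, 38 in replicate 2 and 36 in pooled reads.

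Genes that share the interval but are not receptors were occupied in 17 of 60 cases, 5 of 27 inside the receptor span and 12 of 33 in the flanks. The strongest were in the flanks, with 861 at Mrpl17, a mitochondrial ribosomal protein, 788 at Stim1 and 706 at Rhog, a small GTPase. Then came Trim34a inside the span with 498, followed by Taf10 and Dnhd1 with 316 each, Pgap2 with 313, Trim21 with 217, Nup98 with 208 and Trim30a with 174. Of the 12 Trim genes inside the span, counting Trim21 and Trim68, 5 were occupied (41.7%, 95% exact interval 15.2 to 72.3%), against the 6 of 129 receptors around them and 38% of all protein-coding genes. Trim30a, Trim30b and Trim30d had summits 84 to 106 bp from a start site, and in 100 bases around the match these copies were 90 to 96% identical. The Trim34a site and a summit in Trim12a were 98% identical. Reads from such near copies may be shared between them, so their separate signals are uncertain.

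Of 21 genes of the receptors' pathway and its regulation, 9 were occupied (42.9%), near the 38% of all protein-coding genes. The strongest was Kdm1a, a histone demethylase needed for receptor choice, with 804. Gnal, the olfactory G-protein alpha subunit, followed with 385 and Cngb1, a channel subunit, with 153. Ano2, a calcium-activated chloride channel, was 28746 bp from a summit and Cnga2, the main channel subunit, 7892 bp.

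Olfr genes closer than 1 Mb to each other were grouped into clusters, and 22 had at least 10 genes. The class I cluster had the most occupied genes, 6 of 129, while the other 21 together had 13 of 912 and 12 of them had none. By share, the class I cluster (4.65%) was below a cluster of 21 genes on chromosome 6 (9.52%) and another of 13 genes on chromosome 13 (7.69%). It was also below clusters of 15 and 19 genes on chromosome 7 (6.67% and 5.26%), and above the rest. Each of these higher shares came from 1 or 2 occupied genes. The largest cluster, 227 genes on chromosome 2, had a single occupied gene and 0.276 summits per 100 kb. The density of the class I cluster, 1.52, was above that of 13 of the other clusters and below that of 8. Over all 21 others the median density was 0.718, with a range of 0 to 7.81. Its median distance of 24487 bp was undercut by 4 of them. A longer stretch without a summit was present in 10, up to 1584587 bp. In clusters with no summit at all, among them the one with this longest stretch, the whole cluster length was counted. In the class I cluster the stretch lies between adjacent summits. A cluster's span can contain other genes, as the class I span does.

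**Figure D5:**
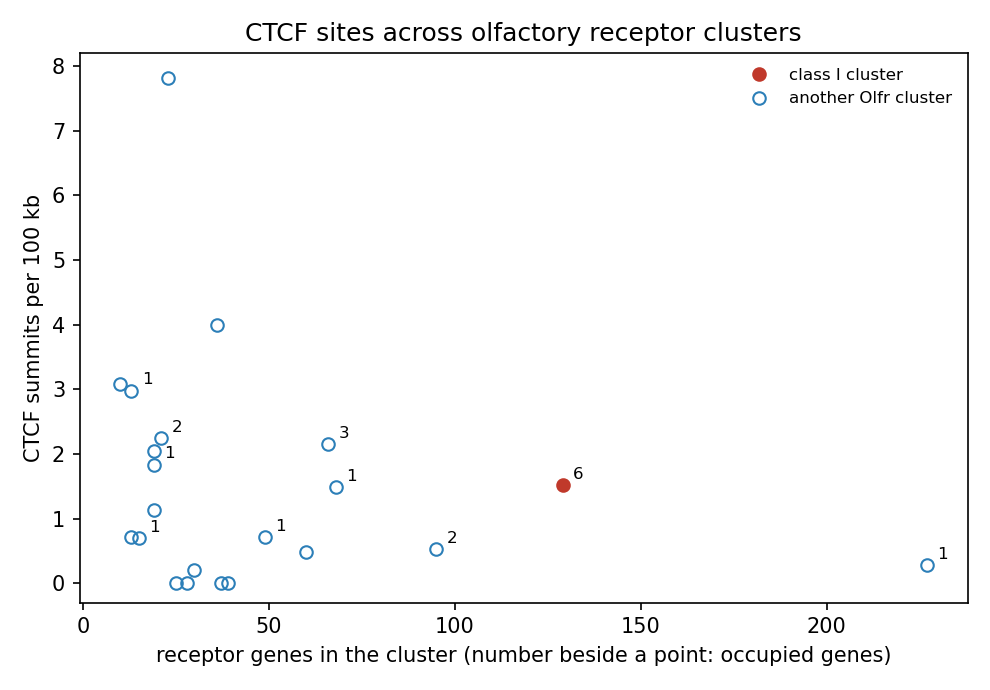
CTCF summits per 100 kb (y axis) against the number of receptor genes (x axis) in the class I cluster (filled) and 21 other Olfr clusters of at least 10 genes (open), with the number of occupied genes beside each point that has any. The class I cluster stands at 129 genes and 1.52 with 6 occupied genes.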

How the data were processed

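The files are CTCF ChIP-seq peak lists on mm10, per the labels. The peak signal and the IDR score were deposited by the authors as scores of their peak calling. The signal's scale, aligner and caller are not given in the sources used. A possible control is named in the labels and was not used here. Values exist per replicate, because its technical libraries share a single alignment, per the file notes. Both pools carry the same donor entry in the labels, and whether they came from separate animals is not stated, so agreement between replicates may be partly technical. The depth of reads is unknown, and a peak's precision with it.

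The main list compares the replicates at an IDR of 0.05, a score of 540 or more. Its ranked form carries an input signal that matched replicate 1 for 78.1% and replicate 2 for 80.0% of peaks by coordinates. Genes, TSSs and exons came from the GENCODE M21 basic annotation. A member was occupied with a summit within 1 kb of a TSS. The CTCF core motif was sought in 50 bp around each summit, on either strand, with at most 1 mismatch. Shares have 95% exact (Clopper-Pearson) intervals. No test between groups was run, since the members and gene lists were chosen with earlier results of these data known. Named receptors were every occupied one, the 3 nearest and 3 farthest unoccupied ones, the end genes and their outer neighbours. Named genes were also the 10 strongest occupied others and, of the pathway list, the 3 strongest and the first 2 unoccupied by alphabet. Named sites were the 5 strongest and the 2 on either side of each end. Cnga4, Cckbr, Olfr78, Olfr560, Olfr545 and Trim12a were singled out after their values were seen. So were the sites beside the globin genes, at the Trim copies and bounding the longest stretch. Alternatives were an IDR of 0.01, the other lists, other distances, TSS sets, spans and motif limits. The code, tested on simulated data, ran in Python 3.11.15 with scipy 1.17.1, pandas 2.3.3 and numpy 2.4.6. Plots used matplotlib 3.10.9.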

Additional observations from a re-analysis of the deposited data

How the results depend on the processing

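Of 38 alternative values, 19 moved by more than the spread between single-replicate lists (for the motif share, its binomial interval, and for counts, a fixed ratio). Occupied members, 6 in the main list, numbered 3 with a limit of 500 bp, 12 with 2 kb, 20 with 5 kb and 3 with the 5-prime-most TSS only. They numbered 5 in pooled reads, 7 when any base of a peak counted, and 6 at an IDR of 0.01 and in each replicate alone. With the comprehensive annotation, a choice added after seeing the data, they also numbered 6. Of all protein-coding genes, 30% had a start site within 486 bp of a summit, 46% within 1978 bp and 59.6% within 5 kb. Shares of all genes under the other settings are not given here. The density of the span, 1.52 per 100 kb, was 1.35 at an IDR of 0.01, 1.28 in pooled reads, 1.47 over receptor genes with 10 kb flanks and 1.35 to 1.42 in single replicates. In each of these lists it was 0.440 to 0.487 of the genome's density. The median distance to a summit, 24487 bp, was 28205 bp at an IDR of 0.01, 28638 bp in pooled reads, 25461 bp with the 5-prime-most TSS and 28203 to 28636 bp in single replicates. The motif share of 59.1% was 9.09% with no mismatch, 84.1% with at most 2 and 43.2% in a 25 bp window. The longest stretch, 592578 bp, was 792359 bp in pooled reads and 592575 to 792361 bp in single replicates, since a weak summit of signal 61.5 was absent from the pooled-read and replicate 2 lists. The cause of the other changes was not tested. No paired analysis was possible because no result comes from a test between groups. Unknown read depth limits what the absence of a peak can show.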
